A study of Mus musculus with 2 samples.

Results

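The genes described here were 10 transcription factors that direct myeloid differentiation, chosen by name from the 24421 gene symbols in the files. They were 4 CCAAT/enhancer-binding proteins (*Cebpa*, *Cebpb*, *Cebpd* and *Cebpg*), the ETS factor PU.1 (gene *Spi1*), 3 interferon regulatory factors (*Irf4*, *Irf5* and *Irf8*) and 2 Runt-domain factors (*Runx2* and *Runx3*). All 10 were found under their current symbols, and 9 of them had a mean of at least 1 CPM (counts per 1000000 gene counts) over the libraries and were compared; *Irf4* did not reach that level. RNA came from hematopoietic stem cells (HSCs) of C57BL/6 mice, with 1 library labelled WT (Ezh2 +/+ CreERT+/-) and 1 labelled Ezh2 KO (Ezh2 Δ/Δ CreERT+/-). Both genotypes carried Cre-ERT, a recombinase that tamoxifen activates. Per the labels, CD45.2 marrow was grafted into lethally irradiated CD45.1 mice, tamoxifen (100 µl at 10 mg/ml) was injected on 5 days, and HSCs of the surface phenotype CD150+CD48-CD34-Flt3- Lin- Sca-1+ c-kit+ were taken 1 month afterwards. The labels give the age of no mouse, neither the number of animals per library nor whether they were pooled, and no promoter for the transgene. No CD45 allele is listed among the sorted markers, and any host HSCs were not gated away by that list.

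In hematopoiesis, PU.1 and the C/EBP proteins act as partners that open and activate the genes of granulocytes and monocytes. C/EBPα drives the step from multipotent to granulocyte-monocyte progenitors, C/EBPβ takes over when granulocyte demand is acute, and IRF8 with PU.1 steers progenitors towards monocytes and dendritic cells and away from neutrophils. EZH2 is the main catalytic subunit of Polycomb repressive complex 2, which deposits H3K27me3 and keeps lineage genes silent in stem cells. The comparison asked whether these regulators differed between HSCs labelled WT and HSCs labelled Ezh2 KO.

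Each group had 1 library, so no difference has a replicate check and no p-value is given. The gene totals were 5763118 counts in WT and 4157280 in the Ezh2 KO-labelled library, and 3 counts, the floor used here, corresponded to 0.521 and 0.722 CPM. Intervals are 95% and cover counting error only, since they are computed from the counts of 1 library per group. Without molecular identifiers PCR copies of a molecule are counted as separate reads, so the intervals can be too narrow even for the sampling of molecules. *Ezh2* itself had 166 and 129 counts (log2 ratio 0.08, interval -0.27 to 0.42), so its gene-level count was not lower in the Ezh2 KO-labelled library, and that library is called by its label throughout; where in the gene the reads lie is not shown by the counts. The libraries also differed in sex-linked transcripts, with *Xist* at 801 and 4 counts and *Ddx3y* at 0 and 275, and sex cannot be told apart from genotype; no member lies on X or Y. All 14 HSC markers were detected in both libraries, and their median log2 ratio was -0.10. Of the 14, 2 had an interval above 0 and 5 one below 0, against 19.2% and 20.8% of all genes. Among genes for the markers sorted for, *Slamf1* (CD150) had a log2 ratio of -0.63 (-0.85 to -0.41). *Ly6a* (Sca-1) stood at 0.32 (0.23 to 0.41) and *Kit* at -0.02 (-0.08 to 0.03). Of the genes whose products the sort selected against, *Cd48* had 12 and 11 counts, *Flt3* 98 and 140, and *Cd34* 957 and 829. After scaling for depth, *Flt3* was 1.93-fold higher in the Ezh2 KO-labelled library (log2 ratio 0.95, interval 0.57 to 1.34). *Cd34* was also higher there (0.23, 0.10 to 0.37), and the interval of *Cd48* included equal levels (0.29, -1.01 to 1.62).

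None of the 9 members compared differed by 2-fold, and none by 1.5-fold, between the Ezh2 KO-labelled library and WT. Over all 12588 genes compared, 8.81% were past 2-fold and 20.5% past 1.5-fold. Of the 9, *Irf5* was higher beyond counting error, *Cebpb* and *Runx3* were lower beyond counting error, and the intervals of the other 6 included equal levels. Those were 1 member with an interval above 0 and 2 with an interval below 0, while 19.2% and 20.8% of all genes were in these classes, so the shares are near the background. The median log2 ratio of the 9 was -0.03, and that of all genes was -0.0032. For 8 of the 9 the whole interval lay within 2-fold, as it did for 71.9% of all genes; the exception was *Cebpa*, whose counts were too few. Log2 ratios are those of the Ezh2 KO-labelled library over WT on the scale of normalised count plus 1, and normalised counts are counts divided by a size factor per library.

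**Figure D1:**
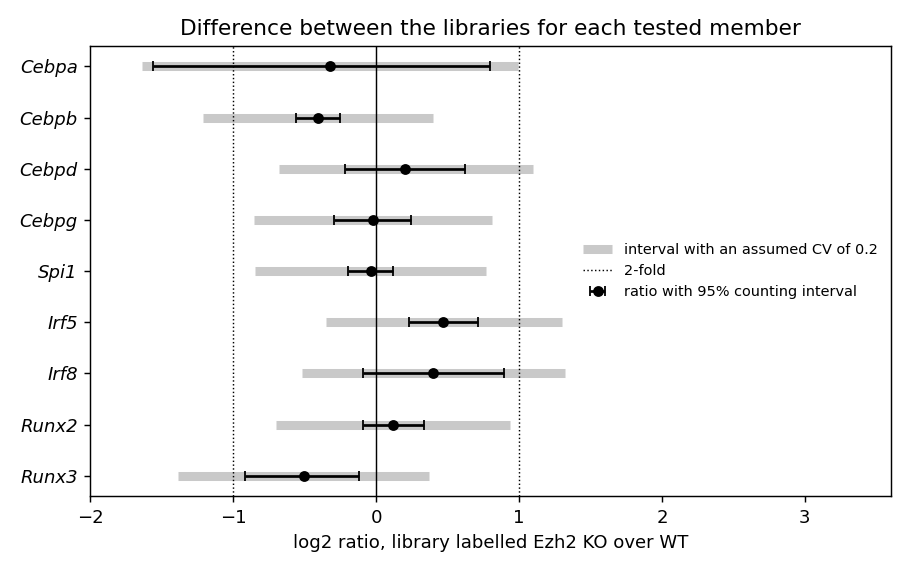
Log2 ratio of the Ezh2 KO-labelled library over WT for the 9 members with a mean of at least 1 CPM. Points and thin bars are the ratio and its 95% counting interval, thick grey bars the interval when libraries are assumed to vary by a coefficient of variation (CV) of 0.2, and dotted lines mark 2-fold. All 9 points lie between -0.51 and 0.47, and every grey bar crosses 0.

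The C/EBP genes were present at very unequal levels. *Cebpb* (chromosome 2, 167688915 to 167690418 in mm10, plus strand), the C/EBP of stress granulopoiesis, had 988 counts in WT and 548 in the Ezh2 KO-labelled library, or 847.8 and 638.6 normalised counts. It was thus 1.33-fold lower in the Ezh2 KO-labelled library, with a log2 ratio of -0.41 (interval -0.56 to -0.26). *Cebpd* (chromosome 16, 15887286 to 15891031), which is induced by inflammatory signals, had 106 and 90 counts, or 91.0 and 104.9 normalised counts. Its log2 ratio was 0.20 (-0.22 to 0.62), so a difference in either direction was not detectable at this depth. *Cebpg* (chromosome 7, 35046422 to 35056573, minus strand), which has a bZIP domain but no classical activation domain and dimerises with the other C/EBPs, had 275 and 199 counts. At 236.0 and 231.9 normalised counts it had a log2 ratio of -0.03 (-0.30 to 0.24). *Cebpa* (chromosome 7, 35119293 to 35121928), the C/EBP that starts the granulocyte-monocyte programme, had 19 and 11 counts, or 16.3 and 12.8 normalised counts. Its log2 ratio of -0.32 had an interval from -1.56 to 0.80, so that at this depth a level more than 2-fold lower could not be told from an equal one. *Cebpa* and *Cebpg* are neighbours separated by 62719 bases.

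*Spi1* (chromosome 2, 91082390 to 91115756) was counted 772 times in WT and 553 times in the Ezh2 KO-labelled library, or 662.5 and 644.4 normalised counts. PU.1 acts in a dose-dependent way, with high levels favouring macrophages. The log2 ratio was -0.04, and its counting interval of -0.20 to 0.12, the narrowest after that of *Cebpb*, included equal levels.

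Both IRF genes that could be compared had log2 ratios above 0, and the counting interval of *Irf5* alone excluded equal levels. *Irf5* (chromosome 6, 29526625 to 29541871), which acts below Toll-like receptors and in inflammatory macrophages, had 287 counts in WT and 293 in the shallower Ezh2 KO-labelled library. This came to 246.3 and 341.4 normalised counts, a 1.38-fold higher level with a log2 ratio of 0.47 (0.23 to 0.71). *Irf8* (chromosome 8, 120736358 to 120756694) had 72 and 70 counts, or 61.8 and 81.6 normalised counts. Its log2 ratio of 0.40 had an interval of -0.09 to 0.90, which included equal levels. *Irf4* (chromosome 13, 30749226 to 30766976), a factor of plasma cells, T cells and some dendritic cells, had 1 and 2 counts, both under the floor, and no fold is given.

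Of the Runt-domain genes, *Runx2* (chromosome 17, 44495987 to 44814797, minus strand), best known as the regulator of bone and also expressed in early progenitors, had 405 and 324 counts, or 347.5 and 377.6 normalised counts. Its log2 ratio came to 0.12 (-0.10 to 0.33). *Runx3* (chromosome 4, 135120652 to 135177990), which acts in cytotoxic T cells, natural killer cells and myeloid cells, had 157 and 81 counts. At 134.7 and 94.4 normalised counts it was 1.42-fold lower in the Ezh2 KO-labelled library, the furthest of the 9 from equal levels, with a log2 ratio of -0.51 (-0.92 to -0.12). In bulk RNA, fewer cells that express a gene and less RNA per cell cannot be told apart.

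These statements rest on counting error alone. With a CV of 0.2 assumed between libraries, the intervals of all 9 members included equal levels, among them *Cebpb* (-1.21 to 0.40), *Irf5* (-0.35 to 1.30) and *Runx3* (-1.39 to 0.37). Under that assumption 3.996% of all genes lay above and 3.23% below. The CV was not measured, because there is no second library of either genotype.

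**Figure D2:**
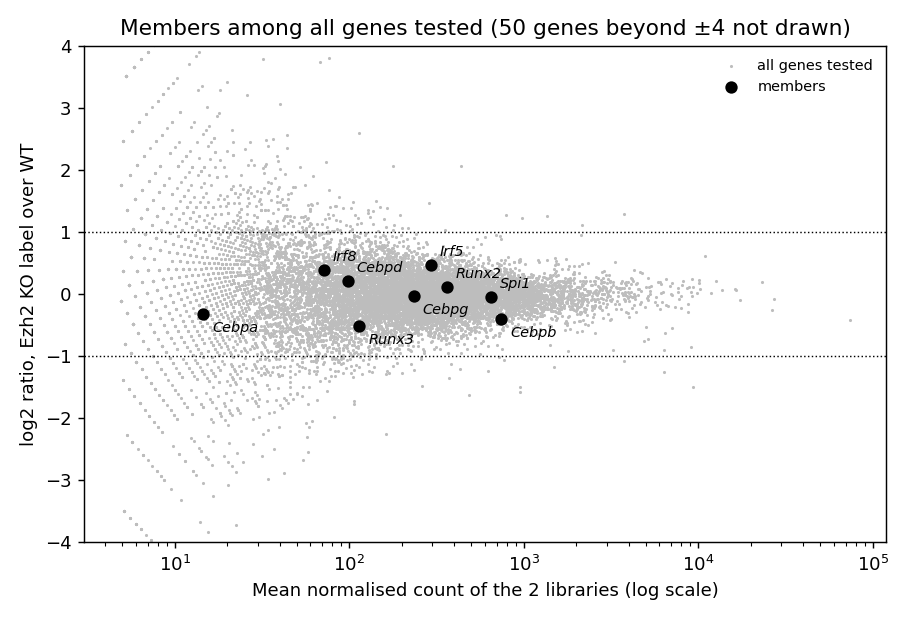
Log2 ratio of the Ezh2 KO-labelled library over WT (vertical axis) against the mean normalised count of the 2 libraries (horizontal axis, log scale). Grey points are the 12588 genes compared, of which 50 lie beyond the axis, and black points are the 9 members. The members lie within the cloud of other genes at their level, between the dotted lines that mark 2-fold.

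Among genes in the files, neighbours on the opposite strand share exon sequence with 3 of these members in the GENCODE M21 annotation, and no source states whether counting used strand, so reads there cannot be assigned with certainty. *Tmem189* overlaps 312 bases of *Cebpb* exon (20.7% of its exon length) and had a log2 ratio of -0.43 (488 and 266 counts), on the same side of 0 as *Cebpb*. *Spidr* overlaps 562 bases of *Cebpd* (15.0%) and had a log2 ratio of -0.46 (183 and 98 counts), on the other side of 0 from *Cebpd*. *Tnpo3* overlaps 411 bases of *Irf5* (14.15%) and had a log2 ratio of 0.14 (703 and 569 counts), nearer 0 than *Irf5*. The part of shared reads in the values of *Cebpb*, *Cebpd* and *Irf5* was not tested.

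Levels were then compared between members as RPKM, the CPM divided by the kilobases of exon, with exon length taken from the union of annotated exons. *Cebpb* was highest in both libraries, at 114.0 RPKM in WT (interval 107.0 to 121.3) and 87.6 in the Ezh2 KO-labelled library (80.5 to 95.3). It ranked 393 and 590 of 24044 genes with a length. *Spi1* followed at 49.7 and 49.4 RPKM, and *Irf5* came next at 17.1 and 24.3. A middle group held *Cebpg* (8.49 and 8.52), *Runx2* (7.95 and 8.82), *Runx3* (5.45 and 3.89) and *Cebpd* (4.91 and 5.78). *Irf8* (1.77 and 2.39 RPKM), *Cebpa* (1.25 and 1.00) and *Irf4* (0.035 and 0.098) were lowest. The intervals of *Cebpg* and *Runx2* overlapped in both libraries, as did those of *Runx3* and *Cebpd*, and those of *Irf8* and *Cebpa* overlapped in WT. All other neighbours in the order were separated by more than counting error. *Cebpb* mRNA per length exceeded *Cebpa* mRNA 91.1-fold in WT (interval 58.0 to 152.0) and 87.3-fold in the Ezh2 KO-labelled library (48.4 to 175.9), so the predominance of *Cebpb* was common to both.

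**Figure D3:**
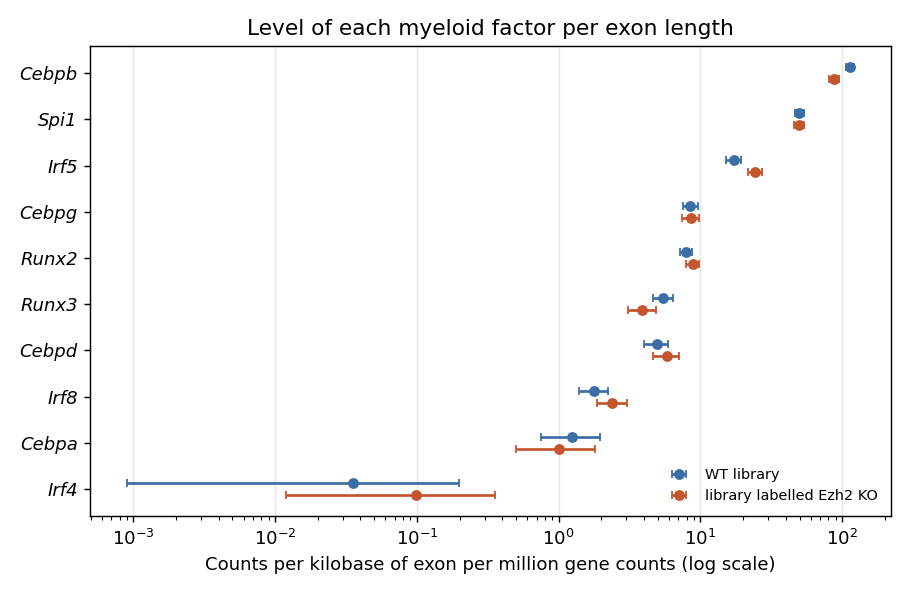
Level of each of the 10 members in RPKM (horizontal axis, log scale), with 95% counting intervals, in the WT library (blue) and the Ezh2 KO-labelled library (orange). *Cebpb* and *Spi1* lead in both libraries, and *Irf4*, with 1 and 2 counts, is lowest.

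Ratios of members within a library use no scaling between libraries, and the pairs given were chosen after the values were seen. *Irf5* reached 0.15 of the *Cebpb* level per length in WT (interval 0.13 to 0.17) and 0.28 in the Ezh2 KO-labelled library (0.24 to 0.32), a ratio 1.84 times as high. The ratio of *Irf5* to *Runx3* was 3.15 (2.58 to 3.85) in WT and 6.23 (4.86 to 8.07) in the other library. *Runx2* to *Runx3* stood at 1.46 (1.21 to 1.77) and 2.26 (1.77 to 2.93). For these 3 pairs the intervals of the libraries did not overlap. For *Runx2* to *Runx3* the margin was narrow, with an upper end of 1.767 in WT and a lower end of 1.770 in the other library. Each of the 3 pairs divides a member with a log2 ratio above 0 by one that was lower beyond counting error, so this restates ratios already given. The interval of *Runx2* itself included equal levels. The intervals also did not overlap for *Cebpb* to *Spi1*, *Irf5* to *Spi1* and *Runx1* to *Runx3*. They overlapped for all other pairs computed. Those were *Cebpb* to *Cebpa*, *Cebpg* and *Cebpd*, *Spi1* to *Cebpa*, *Gata1*, *Gata2* and *Irf8*, *Irf5* to *Irf8*, and *Runx1* to *Runx2*. How often the intervals would not overlap over all gene pairs was not computed. The balance of *Spi1* to *Gata2*, a factor that opposes PU.1 in HSCs, was 0.36 (0.33 to 0.39) and 0.35 (0.32 to 0.38), and that of *Irf5* to *Irf8* was 9.68 (7.45 to 12.7) and 10.2 (7.81 to 13.4), with overlapping intervals for both pairs.

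The stretches upstream of 4 members are shown because they include the 3 genes that differed beyond counting error, with *Cebpa* beside *Cebpb* for contrast. Each is the 250 bases before the transcription start in RefSeq on GRCm38, written 5′ to 3′ on the gene's strand; RefSeq windows matched 8 of the 10 members. Capitals mark matches, on either strand, to the letters TTGCNNAA (C/EBP), GAGGAA (ETS, PU.1), GAAANNGAAA (IRF) or TGTGGT (RUNX). The *Runx3* window belongs to the distal of its 2 RefSeq starts and overlaps an exon of the non-coding gene *Gm16225*, and none of the 4 windows overlaps an annotated exon of its own gene.
Cebpb, chr2:167688665-167688914, plus strand: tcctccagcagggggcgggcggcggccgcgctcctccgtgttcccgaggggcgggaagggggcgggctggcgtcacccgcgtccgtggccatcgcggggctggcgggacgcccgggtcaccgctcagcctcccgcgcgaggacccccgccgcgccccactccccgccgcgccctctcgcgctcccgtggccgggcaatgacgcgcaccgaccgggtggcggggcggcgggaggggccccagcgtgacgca
Cebpa, chr7:35119043-35119292, plus strand: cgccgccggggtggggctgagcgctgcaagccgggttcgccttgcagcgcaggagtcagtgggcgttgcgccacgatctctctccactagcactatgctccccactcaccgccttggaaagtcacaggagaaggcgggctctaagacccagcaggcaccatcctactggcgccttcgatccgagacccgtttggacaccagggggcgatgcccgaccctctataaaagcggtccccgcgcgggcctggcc
Irf5, chr6:29526375-29526624, plus strand: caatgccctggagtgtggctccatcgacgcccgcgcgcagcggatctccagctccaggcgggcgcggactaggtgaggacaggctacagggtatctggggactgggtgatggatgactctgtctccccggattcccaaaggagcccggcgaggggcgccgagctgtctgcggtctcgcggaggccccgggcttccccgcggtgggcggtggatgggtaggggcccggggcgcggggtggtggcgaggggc
Runx3, chr4:135120395-135120644, plus strand: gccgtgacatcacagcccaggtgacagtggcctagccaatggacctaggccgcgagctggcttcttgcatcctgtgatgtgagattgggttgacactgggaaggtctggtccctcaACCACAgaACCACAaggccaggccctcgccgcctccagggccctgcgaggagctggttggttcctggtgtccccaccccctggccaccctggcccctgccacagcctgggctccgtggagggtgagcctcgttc

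The *Cebpb*, *Cebpa* and *Irf5* windows held none of these motifs, and the *Runx3* window held the RUNX letters at 2 places, -134 to -129 and -126 to -121 from the start. Among 32536 upstream windows of the same length, 14.0% held the RUNX letters, 9.57% the C/EBP letters, 23.4% the ETS letters and 2.98% the IRF letters. No match says only that these letters are absent from the window. The windows also differed in CpG content, a property of promoters that Polycomb complexes can occupy. The observed over expected CpG ratio was 0.98 for *Cebpb*, 0.80 for *Cebpa*, 0.80 for *Irf5* and 0.30 for distal *Runx3*, against a median of 0.38 over all windows. The proximal *Runx3* window, which overlaps an exon of *Runx3* itself and is not printed, had a ratio of 0.98, a GC content of 78.8% and none of the motifs, so the low CpG ratio and the RUNX letters belong to the distal window only. GC content of the 4 printed windows was 81.6%, 66.4%, 72.0% and 65.2% in the same order, against a median of 52.4%. The *Cebpb* and *Cebpa* transcripts are single exons of 67.2% and 62.6% GC; the 492 compared genes of at least 60% GC had a median log2 ratio of -0.02, and 9.76% of them were past 2-fold.

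Related factors were examined next, from lists chosen with earlier results known. Of 11 compared partners and modifiers of the C/EBP proteins, 1 was past 2-fold higher and 1 past 2-fold lower, and the median log2 ratio was 0.04. Over all genes compared, 4.91% were past 2-fold higher and 3.90% past 2-fold lower. *Cebpe*, the C/EBP of late granulocyte maturation and secondary granules, had 20 counts in WT and 59 in the Ezh2 KO-labelled library. It was 3.84-fold higher there (log2 ratio 1.94, interval 1.25 to 2.81). *Trib1*, a pseudokinase that targets C/EBPα for degradation, had 206 and 69 counts and was 2.18-fold lower (-1.13, -1.55 to -0.74). Its relative *Trib2* stood on the other side of 0 at 238 and 307 counts (0.81, 0.56 to 1.06). *Hlf*, the most abundant of the list and a bZIP factor of HSCs, had 2508 and 1947 counts (0.08, -0.01 to 0.16).

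None of the 12 compared ETS factors besides PU.1, of the 6 other IRFs or of the 5 other core-binding factors was past 2-fold, against 8.81% of all genes. The interval lay above 0 for 5 of the ETS factors, 2 of the IRFs and 1 of the core-binding factors. It lay below 0 for 1, 0 and 1 of them, while 19.2% of all genes lay above and 20.8% below. The median log2 ratios of these lists were 0.18, 0.01 and 0.04. *Etv6*, the most abundant ETS factor of the list, had 3099 and 2264 counts (-0.01, -0.09 to 0.07). *Irf7*, the inducer of type I interferon, had 482 and 623 counts (0.81, 0.64 to 0.99), and *Irf1*, the most abundant IRF of the list, had 1454 and 1099 (0.04, -0.08 to 0.15). *Runx1*, the Runt-domain factor that HSCs require at their origin, had 1018 and 878 counts with a log2 ratio of 0.23 (0.10 to 0.36). *Cbfb*, the shared non-DNA-binding partner of RUNX proteins, had 1102 and 635 counts and a log2 ratio of -0.35 (-0.50 to -0.21), on the same side as *Runx3*. *Irf7*, *Cbfb* and *Trib2* are not covered by the naming rule, and they were picked with their values in view.

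Among 17 compared lineage factors that cooperate with or oppose the members, the median log2 ratio was 0.07, with 1 past 2-fold higher and 1 lower, against the same 4.91% and 3.90% of all genes. *Klf1*, the erythroid regulator, had 51 and 93 counts (log2 ratio 1.29, 0.80 to 1.83). *Egr2*, which acts with PU.1 in macrophages, had 18 counts in WT and 0 in the Ezh2 KO-labelled library, at least 4.42-fold lower against a floor of 3 counts per library. *Klf1* is also on the list of erythroid markers and *Egr2* on that of immediate-early genes, and both lists are described below. *Lmo2*, the most abundant, had 7646 and 6145 counts (0.13, 0.08 to 0.17).

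Myeloid genes that C/EBP or PU.1 are known to bind were described next. Of 21 compared, none of them a member, 8 were past 2-fold higher and 1 past 2-fold lower in the Ezh2 KO-labelled library, against 4.91% and 3.90% of all genes, with a median log2 ratio of 0.26; *Cebpe* is among the 8 and was listed with the partners too. *Ngp*, a neutrophil granule protein and the most abundant of the list, had 2549 and 4621 counts (log2 ratio 1.30, interval 1.23 to 1.37). *Ltf* and *Camp*, secondary granule genes, had log2 ratios of 1.26 (1.15 to 1.38) and 1.22 (1.09 to 1.36), and *Lcn2*, which codes for an iron-scavenging granule protein, one of 1.28 (1.13 to 1.44). *Cybb*, the catalytic subunit of the phagocyte oxidase, had 95 and 187 counts (1.41, 1.05 to 1.79), and the integrin gene *Itgam* 73 and 131 (1.27, 0.86 to 1.72). Without the 4 genes that are also neutrophil markers, an omission chosen after seeing the data, 4 of 17 were past 2-fold higher and 1 lower, with a median of 0.21. The 4 were *Cebpe*, *Cybb*, *Fcgr3* and *Itgam*. The omission removes only genes on the marker list, and whether these 4 also reflect neutrophil transcripts was not tested. Primary granule genes of the earlier promyelocyte stage, also named after their values were seen, lay on both sides of 0. *Elane* had 860 and 374 counts (-0.76, -0.94 to -0.58), *Prtn3* 1332 and 933 (-0.07, -0.19 to 0.05) and *Mpo* 1794 and 1536 (0.22, 0.12 to 0.32). None of the 3 was past 2-fold.

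**Figure D4:**
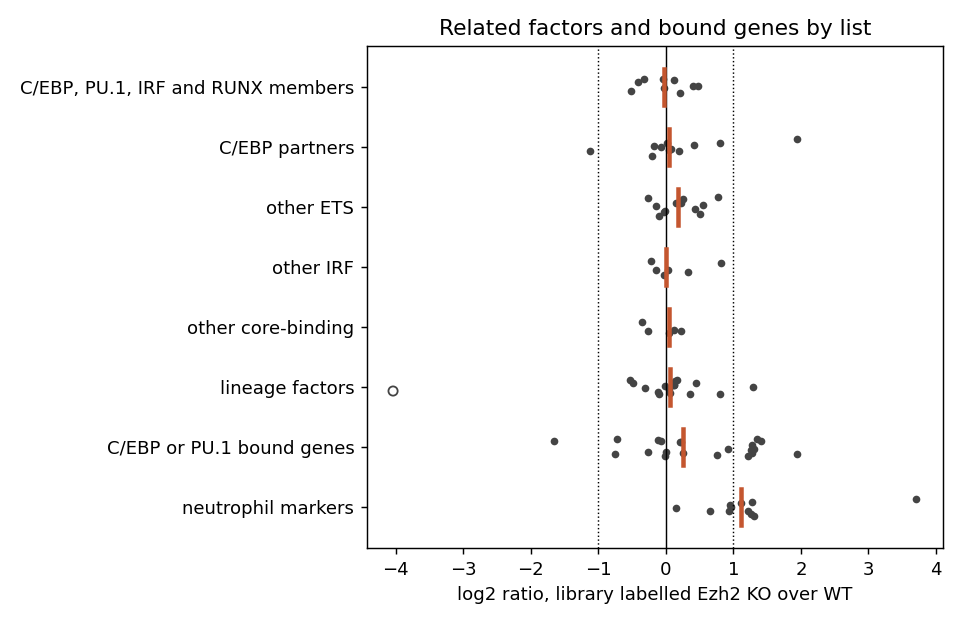
Log2 ratio of the Ezh2 KO-labelled library over WT for each compared gene of 8 lists (rows), with list medians as orange lines and 2-fold as dotted lines. The open circle is *Egr2*, with 0 counts in 1 library, whose position depends on the pseudocount. The 9 members lie within 2-fold, while the neutrophil markers have a median of 1.11.

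Marker genes of other cells differed between the libraries beside these results. For comparison with the counts by sign below, 6244 of all 12588 genes compared had a log2 ratio above 0 and 6344 one below 0. The 11 neutrophil markers in the files summed to 1504 CPM in WT and 3444 CPM in the Ezh2 KO-labelled library, with all 11 log2 ratios above 0, and *Mmp8* was lowest at 6 and 5 counts. The 8 eosinophil markers summed to 1.21 and 780.8 CPM, and 7 of the 8 were at or under the floor in WT. *Prg2*, *Epx* and *Prg3*, the eosinophil granule genes, had 0 counts in WT and 2030, 1000 and 116 in the Ezh2 KO-labelled library. B lymphoid markers went from 48.4 to 95.7 CPM over 10 genes, with 7 at or under the floor in WT and 3 in the other library (*Ms4a1* and *Rag1* were at 0 in both), and erythroid markers from 1842 to 2332 CPM over 10 genes. *Car2* alone made up 1713 and 2066 CPM of the erythroid sums. Of the 10 erythroid markers, 5 were past 2-fold higher and 0 past 2-fold lower, against 4.91% and 3.90% of all genes. Monocyte, macrophage and dendritic cell markers, the cells in which *Spi1*, *Irf5* and *Irf8* are high, summed to 2088 and 1559 CPM over 19 genes, with 8 of 13 compared below 0, 7 of the 19 at or under the floor in WT and 6 in the other library; *Cx3cr1* was at 0 in both. Of these sums, the antigen presentation genes *Cd74*, *H2-Aa* and *H2-Ab1* made up 2021 and 1479 CPM, and the other 16 genes summed to 67.2 and 80.1 CPM, higher in the Ezh2 KO-labelled library. The genes past 2-fold, named after their values were seen, lay on both sides of 0. *Csf1r*, a receptor gene that PU.1 activates, had 24 and 5 counts (-1.66, -3.57 to -0.40), and *F13a1* had 15 and 0. *C1qb*, a complement gene of macrophages, had 33 and 59 counts (1.25, 0.64 to 1.94), *Clec9a*, a dendritic cell receptor gene, 19 and 40 (1.46, 0.69 to 2.39), and *Adgre1*, which codes for the macrophage antigen F4/80, 0 and 9. T and NK markers, which bear on *Runx3*, summed to 51.7 and 39.4 CPM over 9 genes, with 5 at or under the floor in each library and *Cd3d*, *Cd3e* and *Gzma* at 0 in both. The NK receptor gene *Klrb1c* had 116 and 14 counts (20.1 and 3.37 CPM), and the other 8 genes summed to 31.6 and 36.1 CPM, higher in the Ezh2 KO-labelled library; *Nkg7*, a cytotoxic granule gene, had 116 and 109 counts (20.1 and 26.2 CPM). Both splits of a marker list were chosen after seeing the data. Megakaryocyte markers summed to 1913 and 1857 CPM over 8 genes. Immediate-early genes, which cells switch on within minutes of a stimulus or of handling, summed to 14871 and 8282 CPM, with 16 of 17 compared below 0; *Fos* had 16143 and 4198 counts (-1.50, -1.55 to -1.45). The part of these cell types and of immediate-early signalling in the values of the members was not tested.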

How the data were processed

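RNA-seq libraries of WT and Ezh2 KO labelled HSCs, 1 of each, were analysed. Total RNA was amplified with a SMARTer low-input kit and made into libraries with 8 cycles of PCR. The authors deposited raw counts per gene symbol and did not normalise them. Per the study's methods and the submitters' processing notes, reads were aligned to mm10 with TopHat2 2.0.13 and Bowtie2 2.1.0, and StringTie was named for the counts, although the 5 closing entries of each file are those of htseq-count; the strand setting is not given in the sources used here. Those entries (56.1% and 56.9% of all entries, WT first) were left out.

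Normalised counts used size factors by the median of ratios (DESeq2 1.42.0, R 4.3.3; 1.17 and 0.858), and log2 ratios used a pseudocount of 1. With 1 library per group neither edgeR nor DESeq2 could estimate a spread and neither test was run. Genes across the whole table with a mean of at least 1 CPM were compared by a 2-fold threshold and by exact 95% Clopper-Pearson intervals of the counts; levels have exact Poisson intervals. Procedures were tested on simulated data. Positions, lengths and overlaps came from GENCODE M21 (GRCm38, the assembly mm10 names), with 23376 symbols matched as written and 668 through an older name. Other tools were edgeR 4.0.16 (TMM), scipy 1.17.1, numpy 2.4.6, matplotlib 3.10.9 and pandas 2.3.3 under Python 3.11.15.

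The members and lists were chosen with earlier results of these data known. Genes named were the 10 members, *Ezh2* and, in the 6 lists of related factors and bound genes, those past 2-fold (at most 6 per list, by abundance) and the most abundant; marker lists are given by sums with up to 3 genes of highest level. Exceptions are stated. *Ly6g* and *Trbc1*, listed as markers, were not matched by symbol.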

Additional observations from a re-analysis of the deposited data

How the results depend on the processing

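The number of the 9 members whose interval excluded equal levels was 3, and it was 0 with an assumed CV of 0.2 and 0 with a CV of 0.4. Over all genes, 3.996% lay above and 3.23% below with a CV of 0.2, and 1.66% and 0.906% with a CV of 0.4. The number of members remained 3 under TMM scaling, total-count scaling, thinning of the WT library and without the low-count filter. In that order, 19.4%, 21.6%, 18.6% and 17.0% of all genes lay above, and 20.6%, 18.5%, 18.3% and 18.2% below. The number past 2-fold was 0 under every scaling, pseudocount, filter and fold threshold tried, and edgeR and DESeq2 tests were not run, so there is no count at an unadjusted p. Few members would be past 2-fold at the share of all genes, which was 8.81% in the main setting. That share was 6.33% with a pseudocount of 5, 2.18% with a minimum of 10 CPM and 16.8% without the low-count filter. The 0 at a 4-fold threshold follows from the 0 at 1.5-fold. The median log2 ratio of the members stayed near 0, between -0.07 and 0.05, and was above 0 with total-count scaling, with no low-count filter and with a minimum of 10 CPM. Leaving out the genes that are also neutrophil markers, an alternative chosen after seeing the data, took the bound genes past 2-fold higher from 8 to 4. 2 further splits chosen after seeing the data changed direction: the ratio of summed marker levels, Ezh2 KO label over WT, went from 0.747 to 1.19 for monocyte, macrophage and dendritic cell markers without *Cd74*, *H2-Aa* and *H2-Ab1*, and from 0.763 to 1.14 for T and NK markers without *Klrb1c*. Across 5 alternatives of scaling, pseudocount and thinning, *Cebpb* ranged from -0.41 to -0.38, *Irf5* from 0.40 to 0.50 and *Runx3* from -0.53 to -0.48, while *Cebpg* ranged from -0.07 to 0.0045 and had no stable sign. With the longest transcript as the length, 8 of the 10 members kept their place in the WT order, *Cebpg* and *Runx2* changing places, and all 10 kept it in the other library. *Cebpa* and *Irf4* were limited by depth. No paired analysis was possible because there is a single library of each genotype, and for the same reason no library could be left out.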
